A study of Mus musculus with 2 samples.

Results

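The transcripts described here are 3 long noncoding RNAs that stay in the nucleus, *Malat1*, *Neat1* and *Kcnq1ot1*, and 4 noncoding genes that host small nucleolar RNAs (snoRNAs), *Gas5*, *Snhg1*, *Snhg8* and *Snhg12*. They were chosen by symbol, with no threshold on their values, and all 7 are among the 48321 gene symbols listed in both count tables. RNA-seq was performed on CD4- mature thymocytes (CD24lo TCRβhi) sorted from MHC-II0:CD8ab Tg mice on the C57Bl/6 background, in 2 libraries. These mice lack MHC class II through loss of I-Aβ, both copies of their own *Cd8* locus are disrupted (a human CD2 cDNA replaces an exon of *Cd8a*, and an exon of *Cd8b1* is deleted), and cDNAs of CD8α and CD8β are expressed from *Rosa26* once *Cd4-Cre* has excised a stop. The sample titles call the cells CD4-CD8-, whereas the cell type field calls them CD8+. The age of the mice, and whether animals were pooled, are not given in the sources used here. The labels give a single group, so no condition could be compared, and the wild-type libraries of the study, which belong to another series, were not analysed here.

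Nuclear long noncoding RNAs act where they are made. *Malat1* RNA gathers in nuclear speckles, the depots of splicing factors, and *Neat1* RNA is the scaffold on which paraspeckle proteins assemble. *Kcnq1ot1* is an imprinted transcript, made from the paternal chromosome, that silences neighbouring genes on that chromosome. A snoRNA host gene is transcribed and spliced like a messenger RNA, and its introns are trimmed to snoRNAs, which guide the chemical modification of ribosomal RNA (C/D snoRNAs guide methylation, and H/ACA snoRNAs guide pseudouridylation). The spliced exons of several hosts begin with a run of pyrimidines, the terminal oligopyrimidine (TOP) feature that they share with messenger RNAs of ribosomal proteins, and are degraded by nonsense-mediated decay when ribosomes engage them. *Gas5* was named for its accumulation in growth-arrested cells and is abundant in lymphocytes that are not growing.

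To show how these transcripts begin, 30 bases around each annotated start (RefSeq, GRCm38.p6, 5′ to 3′ on the gene's strand) are printed, with the start site at base 9. Capitals mark a C followed by at least 4 bases that are C or T, with the C within 5 bases of the start. The RefSeq promoter table held 6 of the 7 genes, and *Neat1* was not matched.
Gas5, first start, chr1:161034593-161034622, plus strand: gggcccgcgagctcgacagcccggagccaa
Gas5, second start, chr1:161035158-161035187, plus strand: atctcagCCTTTCggagctgtgcggcattc
Snhg12, chr4:132308670-132308699, plus strand: ctcagtCCTTTCTCgcttcatccgcggtcc
Snhg8, chr3:123508315-123508344, minus strand: tcagaagtCTCTTTggctgcgatccgccta
Snhg1, chr19:8723479-8723508, plus strand: ttgtcggcctcatttttccttgttcggggt
Malat1, chr19:5802651-5802680, minus strand: ctctgcgtcaggcattcaggcagcgagagc
Kcnq1ot1, chr7:143296526-143296555, minus strand: gtcgctaggaggaacagttgcctcagcacg

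Such a run stood at an annotated start of 3 of the 4 hosts and at that of 0 of the 2 nuclear RNAs with an entry. *Gas5* had it at the second of its annotated starts, at position 161035166, and not at the first, at 161034601. Counted per gene with any of its starts, 5718 of 27025 genes (21.2%) held it, as did 5 of the 13 other noncoding hosts with an entry, and per promoter 6027 of 32851 (18.3%). A match is a feature of the sequence at the annotated start and does not show where transcription began in these cells.

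The other end of each transcript bears on poly(A)-selected libraries, since such libraries capture RNA through its A-tail. Malat1 and the long form of Neat1 are known to be cut at their 3′ ends by RNase P, which releases a small tRNA-like RNA, and both then end in an A-rich stretch. The 30 bases of GRCm38 before each small RNA are printed with runs of at least 4 A in capitals.
Malat1, before Mascrna, chr19:5795982-5796011, minus strand: ttccctagctttAAAAAAAAAAAAgcAAAA
Neat1-201, before Gm27702, chr19:5824708-5824737, minus strand: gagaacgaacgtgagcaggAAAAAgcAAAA
Of these 30 bases, 17 were A in *Malat1* and 16 in *Neat1*, with longest runs of 12 and 5. *Mascrna* was not among the symbols of the count tables, and *Gm27702* had 0 counts in both libraries. The hosts, *Kcnq1ot1* and the short form of *Neat1* have a cleavage and polyadenylation signal (AATAAA or ATTAAA, in capitals) in the last 30 bases of a GENCODE M21 transcript.
Neat1-202: tttacagcaaAATAAAggtttgagattgaa
Kcnq1ot1-201: taatAATAAAgacattaaaatccacaaaac
Gas5-209: ttttaccATTAAAgtgtattataacatgaa
Snhg1-211: ttgttctagcAATAAAtgctctttatgcta
Snhg8-203: tttatattaAATAAAagatgtttggtgtgt
Snhg12-206: agttggttcAATAAAgacttttggaaagtg
Searched on the transcript's strand only, a signal lay in the last 40 bases of 17 of 25 annotated *Gas5* transcripts, 10 of 18 of *Snhg1*, 3 of 3 of *Snhg8* and 8 of 10 of *Snhg12*. It was found in 3 of 4 transcripts of *Malat1*, whose annotated 3′ end lies 292 bases beyond the A-rich stretch, in the single one of *Kcnq1ot1*, and in 1 of 4 of *Neat1*, that of 3004 bases, but not in the longest (20771 bases). Over all annotated transcripts, 46205 of 141704 (32.6%) held one. The look at 3′ ends was chosen after the values were seen.

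Reads assigned to genes numbered 16732644 (replicate 1) and 16245849 (replicate 2), or 40.6% and 41.2% of the uniquely aligned reads, while 55.9% in each were set down by the counting as on no feature, which, with the strand setting not given, can include reads on the strand opposite a gene. Levels are given as CPM, each count scaled to the total on genes, and 3 counts, the limit that a count of 0 allows, correspond to 0.179 and 0.185 CPM. All 8 T-cell markers were detected, with summed levels of 3834 and 3872 CPM, and the 6 markers of mature thymocytes summed to 4607 and 4568 CPM. Each marker list for double-positive thymocytes, B cells, myeloid cells, dendritic cells and thymic epithelium summed to at most 16.1 CPM in either library, and the 5 erythroid markers were at 0. *Cd4* had 12 and 27 counts. The libraries differed most plainly at *Xist*, the RNA that coats the inactive X chromosome, with 34 counts in replicate 1 and 25266 in replicate 2. The labels do not say whether the libraries came from separate mice. Counts so unlike at *Xist* are not those of the same cells sequenced again, so the libraries differ in the animals they came from. The p-values below cover counting error only, not the spread among animals.

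*Malat1* was by far the most counted of the 7, with 38186 counts in replicate 1 and 37961 in replicate 2. Its level was 2282 CPM (95% Wilson interval 2259 to 2305) and 2337 CPM (2313 to 2360), a mean of 2309 ± 38.6 CPM (SD, n = 2). It ranked 15 among the 48321 symbols by mean CPM, which does not allow for gene length. The gene (ENSMUSG00000092341.3) is a lincRNA read from the minus strand at 5795690 to 5802672 of chromosome 19 (GRCm38), where 6983 bases are exon in at least 1 of its 4 transcripts. *Neat1* lies nearby on the same strand, at the higher positions 5824708 to 5845478, with 20771 exonic bases that hold both the short and the long form. It had 3111 and 3184 counts, or 186 CPM (179.5 to 193) and 196 CPM (189 to 203), a mean of 191 ± 7.12 CPM. *Kcnq1ot1*, an unspliced antisense transcript of 93092 bases on chromosome 7 (143203458 to 143296549, minus strand), had 1353 and 1280 counts, or 80.9 CPM (76.7 to 85.3) and 78.8 CPM (74.6 to 83.2), a mean of 79.8 ± 1.46 CPM. For each of these 3 RNAs the 2 libraries were close, with a coefficient of variation of 1.67% for *Malat1*, 3.73% for *Neat1* and 1.83% for *Kcnq1ot1*.

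Among the hosts, *Gas5* stood apart from the others in that its 2 libraries were far from each other. Its counts were 2043 (replicate 1) and 3072 (replicate 2), or 122 CPM (117 to 127.5) and 189 CPM (183 to 196), a mean of 156 ± 47.4 CPM and a coefficient of variation of 30.4%. *Snhg1* had 1095 and 988 counts, or 65.4 CPM (61.7 to 69.4) and 60.8 CPM (57.1 to 64.7), with a mean of 63.1 ± 3.27 CPM. *Snhg12* had 493 and 458 counts, or 29.5 CPM (27.0 to 32.2) and 28.2 CPM (25.7 to 30.9), with a mean of 28.8 ± 0.899 CPM. *Snhg8* had 443 and 404 counts, or 26.5 CPM (24.1 to 29.1) and 24.9 CPM (22.6 to 27.4), with a mean of 25.7 ± 1.14 CPM. For *Snhg1*, *Snhg12* and *Snhg8* the intervals of the 2 libraries overlapped, whereas for *Gas5* they did not. In GRCm38, *Gas5* lies on chromosome 1 from 161034422 to 161038539 (plus strand), *Snhg1* on chromosome 19 from 8723475 to 8726443 (plus), *Snhg12* on chromosome 4 from 132308623 to 132311024 (plus) and *Snhg8* on chromosome 3 from 123507552 to 123508404 (minus).

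**Figure D1:**
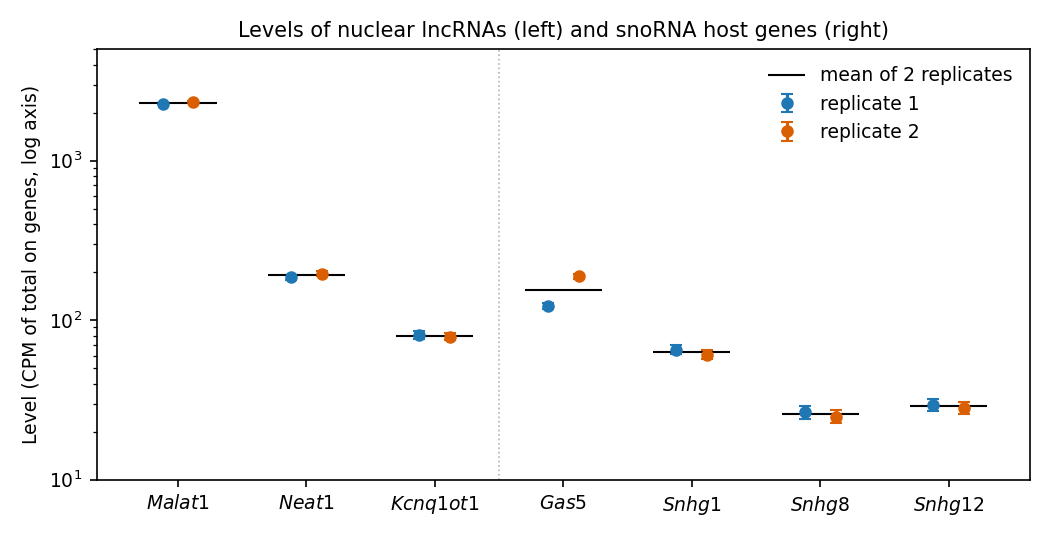
Level of each gene in CPM of the total on genes (log axis), with replicate 1 and replicate 2 as points, 95% Wilson intervals as bars and the mean as a line, nuclear RNAs on the left and hosts on the right. *Malat1* lies at 2282 and 2337 CPM, and *Gas5* is the gene whose points are widest apart, at 122 and 189 CPM.

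Of all reads assigned to genes, the 3 nuclear RNAs together held 0.255% (0.252% to 0.257%) in replicate 1 and 0.261% (0.259% to 0.264%) in replicate 2. *Malat1* made up 89.5% of their counts in both libraries, *Neat1* 7.29% and 7.51%, and *Kcnq1ot1* 3.17% and 3.02%. The 4 hosts held 0.0243% (0.0236% to 0.0251%) and 0.0303% (0.0295% to 0.0312%). *Gas5* made up 50.1% of the counts on hosts in replicate 1 and 62.4% in replicate 2, and the shares of the other 3 were smaller in replicate 2.

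CPM does not compare genes of unlike length, so the levels were also divided by the length of exon. In CPM per kb of the union of exons, *Malat1* was at 331 ± 5.52 (SD, n = 2), rank 79 of the 15358 genes with a length and enough counts, and *Gas5* followed at 41.4 ± 12.6. *Snhg8* was at 30.1 ± 1.33 and *Snhg1* at 21.3 ± 1.10 CPM per kb, and *Snhg12* at 12.3 in replicate 1 and 11.7 in replicate 2 (SD 0.374). *Neat1* was at 9.19 ± 0.343 and *Kcnq1ot1* at 0.857 ± 0.0157 CPM per kb, rank 11553. Per length, all 4 hosts therefore lay above *Neat1*, although *Neat1* has more counts than any of them. The ranges of the 2 libraries did not overlap for any pair of neighbours in this order. The steps ran from 1.31-fold, between *Snhg12* and *Neat1*, to 10.7-fold, between *Neat1* and *Kcnq1ot1*.

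The order rests on the length chosen, because reads were counted per gene and not per transcript. Divided by the length of the short polyadenylated form, Neat1-202, instead of by all exonic bases, *Neat1* was at 63.6 CPM per kb, above the value of *Gas5* over its union of exons. The exons of *Gas5* span 3760 bases over all its transcripts, of which 20 of 25 are annotated as retained-intron forms, while the spliced Gas5-209 has 346 bases. By the longest transcript of each gene, *Gas5* was at 60.9 and *Snhg12* at 18.7 CPM per kb. By the shortest, *Malat1* was at 4762 and *Gas5* at 449.7 CPM per kb. *Kcnq1ot1*, with its single transcript, kept 1 value and was the lowest under every length tried.

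**Figure D2:**
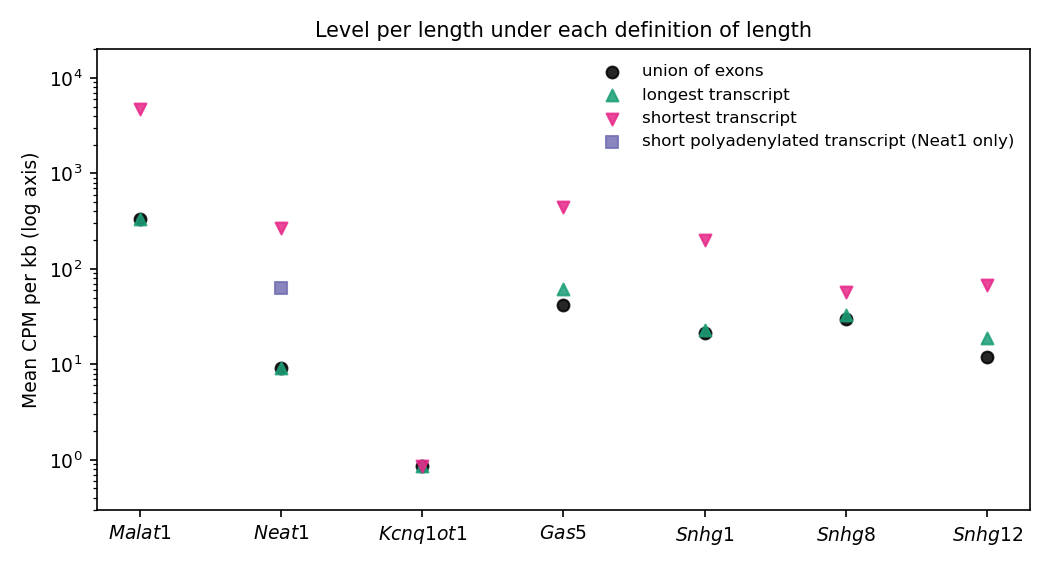
Mean CPM per kb of the 2 replicates (log axis) for each gene, with the length taken as the union of exons, the longest transcript, the shortest transcript or, for *Neat1*, the short polyadenylated form. *Neat1* moves from 9.19 to 63.6 with its short form, and *Kcnq1ot1* stays at 0.857.

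The 2 libraries were compared gene by gene with a two-sided exact binomial test of the counts against the totals on genes, which covers counting error only and compares these libraries, not conditions. Of the 15949 genes with at least 10 counts, 2596 (16.3%) passed at an adjusted p under 0.05, 2146 (13.5%) of them higher in replicate 2 and 450 (2.82%) lower. Of the 7 genes described here, 2 passed, *Gas5* and *Malat1*, both higher in replicate 2. All 7 have at least 500 counts over both libraries, and 26.8% of the 7756 genes with that many passed. None of the 7 differed at least 2-fold as well, as 242 genes (1.52%) did, 0.94% of all genes tested being higher and 0.577% lower in replicate 2. The median log2 ratio of replicate 2 to replicate 1 over all genes tested was 0.076, and with library sizes from edgeR's TMM factors it was -0.00097.

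*Gas5* was 1.55-fold higher in replicate 2, a log2 ratio of 0.63 (95% exact interval 0.55 to 0.71, adjusted p = 1.51e-51). Among the 7756 genes with at least 500 counts, the middle 95% of log2 ratios ran from -0.22 to 0.39, and 0.683% of them had a larger absolute ratio than *Gas5*. Its log2 ratio stayed between 0.55 and 0.63 under the 7 settings tried, but with a biological coefficient of variation of 0.1 assumed in edgeR's exact test the adjusted p was 0.267. The difference at *Xist*, above, ran between the same libraries, and its part in the result for *Gas5* was not tested. Since the libraries also differ in their animals, the difference at *Gas5* cannot be told apart from one between animals. With 1 library on each side, the difference has no replicate check.

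*Malat1* differed by much less, with a log2 ratio of 0.034 (0.01 to 0.05, adjusted p = 0.0108 by the exact binomial test), and its direction turned with the scaling. The log2 ratio was -0.043 with TMM library sizes (adjusted p = 0.000987), -0.028 with DESeq2 size factors and -0.023 without mitochondrial and ribosomal RNA genes in the total. *Neat1* had a log2 ratio of 0.076 (0.00 to 0.15, adjusted p = 0.149), the same to 2 digits as the median of all genes. *Kcnq1ot1* had -0.037 (-0.15 to 0.07), *Snhg12* -0.064 (-0.25 to 0.12), *Snhg8* -0.090 (-0.29 to 0.11) and *Snhg1* -0.11 (-0.23 to 0.02), with adjusted p from 0.281 to 0.756. The 3 hosts other than *Gas5* thus had intervals that included 0, and only for *Snhg1* was the test passed under another scaling (log2 ratio -0.18 with TMM, adjusted p = 0.0411).

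**Figure D3:**
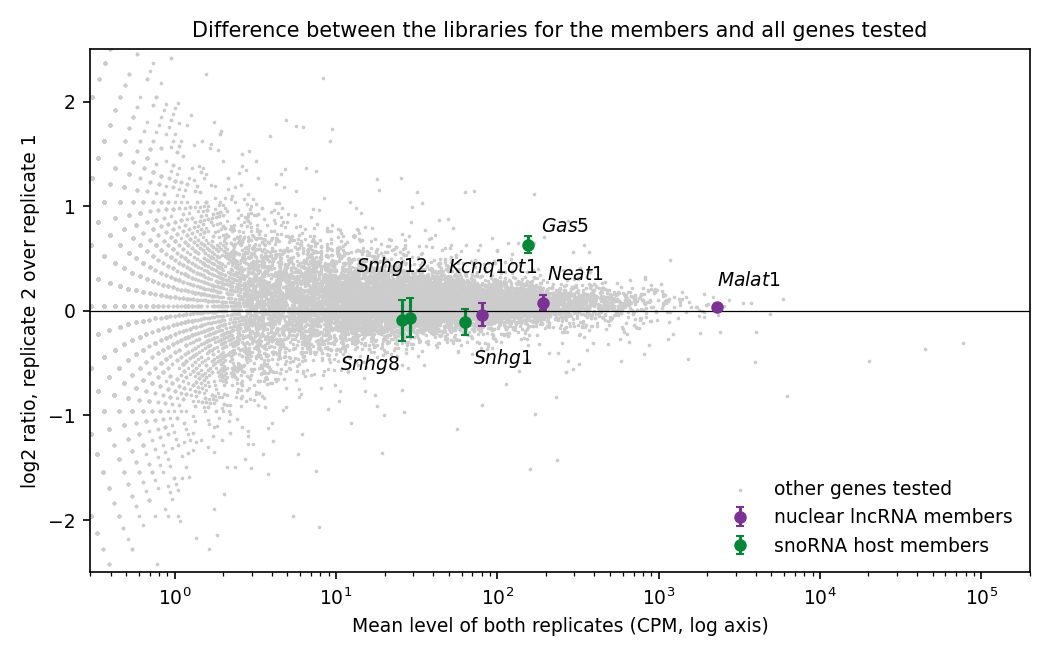
Log2 ratio of replicate 2 over replicate 1 against mean CPM (log axis) for the 7 genes, with 95% exact intervals as bars, and for the other genes tested with counts in both libraries in grey (72 lie beyond the axis). *Gas5* lies at 0.63, above the cloud of genes of like level, and the other 6 lie between -0.11 and 0.076.

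The introns of the hosts hold 22 annotated snoRNA symbols on the host's strand, 60 to 137 bases long, of which 9 lie in *Gas5*, 8 in *Snhg1*, 4 in *Snhg12* and 1 in *Snhg8*. *Snhg12* holds *Snora16a*, *Snora44*, *Snora61* and *Snord99*, and *Snhg8* holds *Snora24*. In the spliced transcripts Gas5-209 (8 exons), Snhg1-211 (10 exons), Snhg8-203 (2 exons) and Snhg12-206 (5 exons), all of them fall in introns, and each is also exonic in at least 1 retained-intron or other transcript. Of the 22, 21 had 0 counts in both libraries. *Snora16a*, in *Snhg12*, had 14 and 12 counts, which were 2.76% and 2.55% of the counts on *Snhg12* and its snoRNAs. Over all snoRNA symbols in the tables, 246 of 1483 (16.6%) had counts, 1799 and 1679 in sum. The counts on the hosts are counts over exons of all annotated transcripts, not only of the spliced forms. In GENCODE M21 such exons cover the whole span of *Snhg1* (2969 bases), *Snhg8* (853 bases) and *Snhg12* (2402 bases). They cover 3760 of the 4118 bases of *Gas5*. With such an annotation, reads in the introns of a spliced form can be counted on the host. A count of 0 here says nothing of the level of the snoRNAs, which as mature RNAs have no A-tail. A read in an intron that overlaps an annotated snoRNA and an exon of the host can also be set aside as ambiguous, as 3.52% and 2.92% of the uniquely aligned reads were.

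**Figure D4:**
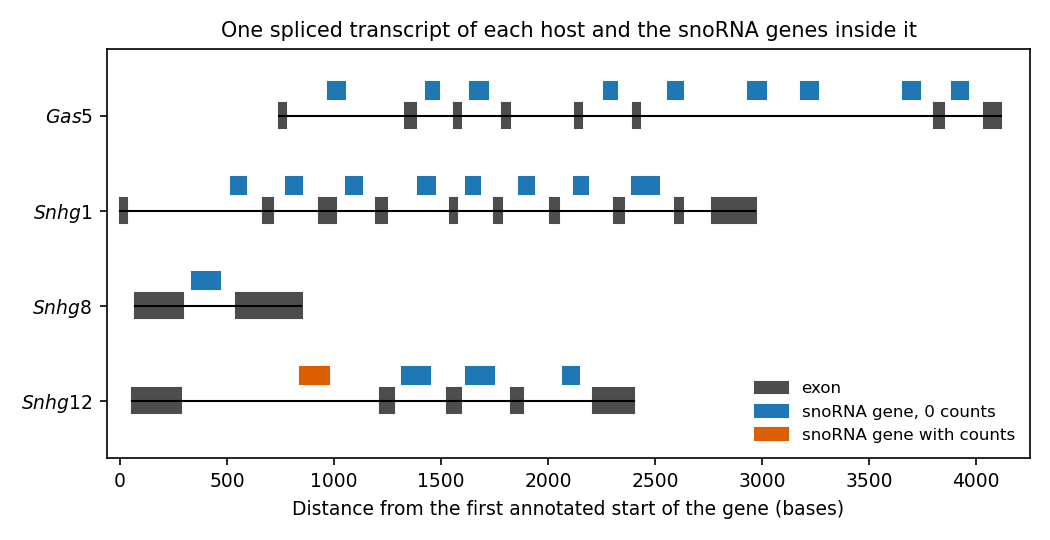
A spliced transcript of each host drawn 5′ to 3′ by distance in bases from the gene's first annotated start, with exons as dark boxes and snoRNA genes above them, in blue at 0 counts and in orange with counts. The 22 snoRNAs fall between exons, and only *Snora16a* in *Snhg12* has counts.

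The strand setting of the counting is not given in the sources used here, so genes on the other strand were examined. *Gm37376*, a gene model of 453 bases (chromosome 19, 5801941 to 5802393, plus strand) of the class still to be experimentally verified, lies wholly within the exon of *Malat1*. Its counts were 2704 and 2756, or 5969 and 6084 counts per kb, beside 5468 and 5436 counts per kb on *Malat1*. Per length, the gene on the opposite strand was thus 1.09 and 1.12 times as high as *Malat1* itself. With its counts added, *Malat1* had a mean of 2475 CPM. Where strands are ignored, a read on *Gm37376* also lies on *Malat1* and is set aside as ambiguous. That *Gm37376* had counts means that the counting kept strands apart, if the authors' annotation matches GENCODE M21 here. Whether the libraries themselves keep the strand of the RNA is not stated. Whether the reads on *Gm37376* come from *Malat1* RNA was not tested.

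Inside *Kcnq1ot1*, the small gene models *Gm27395*, *Gm27389*, *Gm27803* and *Gm27539* lie on the plus strand and had 1 to 6 counts per library, at 0.353 to 1.86 times the counts per kb of *Kcnq1ot1*. *Kcnq1*, the potassium channel gene in whose intron *Kcnq1ot1* starts, shares 121 exonic bases with it (2.96% of its exons) and had 6 and 3 counts. No gene on the other strand overlapped exons of *Neat1* or of the 4 hosts in this annotation. As a further check on the counts, the share of 50-base windows that also occur in transcripts of other genes was 1.33% for *Neat1*, 1.71% for *Kcnq1ot1*, 5.21% for *Gas5*, 6.24% for *Malat1*, 7.08% for *Snhg1*, 9.05% for *Snhg8* and 10.6% for *Snhg12*. For *Malat1* the larger portion was *Gm37376* (5.72%), and for *Snhg8* all of it was *Snora24*.

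By distance in log2 CPM over the 2 libraries, the protein-coding gene nearest to *Malat1* among 13191 was *Tmsb4x*, which encodes an actin-binding peptide, at 2351 and 2286 CPM (distance 0.053). *Hspa9*, a mitochondrial chaperone, was nearest to *Neat1* (0.010), and *Map1lc3b*, an autophagy protein, to *Kcnq1ot1* (0.00249). *Arfgap1* was nearest to *Snhg1* (0.034), *Rhbdd1* to *Snhg8* (0.017) and *Cables2* to *Snhg12* (0.0043). *Gas5* had the most distant neighbour (0.15), *Eif2s3x*, an X-linked subunit of a translation initiation factor, at 130.8 and 205 CPM. With 2 libraries, nearness says only that the levels were alike.

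Of 16 other noncoding snoRNA hosts, 14 were listed and 12 tested. *Zfas1* had the highest mean CPM, with 898 and 870 counts (53.6 ± 0.0816 CPM), and *Snhg11* the lowest, with 4 and 12 counts. Of the 12, 2 passed the test as higher in replicate 2, 0 as lower, and 10 did not pass, beside 13.5% higher and 2.82% lower over all genes tested, and the median log2 ratio was 0.030, beside 0.076 over all genes. *Snhg4* rose from 103 to 160 counts (log2 ratio 0.68, adjusted p = 0.00265 by the exact binomial test) and *Snhg20*, named after its values were seen, from 425 to 515 (0.32, adjusted p = 0.00787). With TMM library sizes the median was -0.046 and only *Snhg4* passed, and with a biological coefficient of variation of 0.1 in edgeR's exact test 0 of the 12 passed (adjusted p = 0.612 for *Snhg4*). None of the 12 differed at least 2-fold at that threshold.

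The proteins that act on snoRNAs and on host transcripts were counted in both libraries. Of 9 core proteins of C/D and H/ACA snoRNPs tested, 1 passed as higher in replicate 2, *Nop56*, a core protein of C/D particles, which also had the highest level (161 ± 12.7 CPM, log2 ratio 0.16), and 8 did not pass. *Naf1*, an assembly factor of H/ACA particles, was the lowest (13.5 ± 1.95 CPM). Of 10 factors of nonsense-mediated decay, 2 passed as higher and 8 did not pass. *Smg1*, the kinase of UPF1, was at 629 ± 19.7 CPM and *Smg8*, its regulator, at 28.7 ± 2.75 CPM, the ends of the range, and *Smg6*, an endonuclease, had the largest log2 ratio of those that passed (0.25, adjusted p = 0.000831 by the exact binomial test). Over all genes tested 13.5% were higher and 2.82% lower. With TMM library sizes 0 of the 9 snoRNP proteins passed, and of the decay factors 0 passed as higher and 1 as lower. With the biological coefficient of variation of 0.1, 0 of the 9 and 0 of the 10 passed.

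All 11 paraspeckle proteins and all 11 speckle and splicing factors were tested. Of the paraspeckle proteins, which bind *Neat1*, 4 passed as higher in replicate 2 and 0 as lower. *Hnrnpk* was the highest (482 ± 14.5 CPM), *Pspc1* the lowest (37.9 ± 4.39 CPM), and *Dazap1* had the largest log2 ratio (0.28, adjusted p = 2.12e-07 by the exact binomial test). Of the speckle and splicing factors, 7 passed as higher and 1 as lower, with *Srrm2*, a scaffold of speckles, the highest (849 ± 35.0 CPM) and *U2af1*, which reads the 3′ splice site, the lowest (50.9 ± 2.14 CPM). *Srsf1* had a log2 ratio of 0.20, and *Srsf7* (-0.14) was the factor that fell. Beside these counts, 13.5% of all genes tested were higher and 2.82% lower, and of the genes with at least 500 counts 26.8% passed in either direction. The counts moved with the scaling, since with TMM library sizes 2 paraspeckle proteins passed as higher, and 2 speckle factors passed as higher and 2 as lower. With the biological coefficient of variation of 0.1, 0 of the 11 in either list passed.

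Among 12 other nuclear or chromatin-bound noncoding RNAs listed, 11 were tested, 5 passed as higher in replicate 2 and 1 as lower, beside 13.5% and 2.82% of all genes tested. *Xist* had the highest mean and the largest log2 ratio (9.58), and *Meg3*, with 5 and 7 counts, the lowest mean. *Tsix*, on the strand opposite *Xist*, had 8 and 2381 counts. Since it is not stated whether the libraries keep the strand of the RNA, reads of *Xist* and *Tsix* where they overlap cannot be told apart. *H19* had 26 and 64, *Ftx* 142 and 198, and *Tug1* 1924 and 2037 counts. *Rpph1*, the RNA of RNase P, fell from 370 to 206 counts (log2 ratio -0.80, adjusted p = 4.31e-09 by the exact binomial test). The share of counts on ribosomal RNA repeats also fell, from 14.4% in replicate 1 to 11.3% in replicate 2. How far poly(A) selection captured *Rpph1* in each library was not tested, so its fall in counts need not be one in level. With TMM library sizes *Xist*, *Tsix* and *H19* passed as higher and *Rpph1* among 2 as lower. With the biological coefficient of variation of 0.1 in edgeR's exact test, 2 of the 11 passed, *Xist* and *Tsix* (adjusted p = 0.134 for *Rpph1*).

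The genes in and around the domain that *Kcnq1ot1* is known to silence ran from 0 counts to well counted. Of 11 genes, *Phlda2*, *Slc22a18* and *Ascl2* had 0 counts in both libraries. *Cdkn1c*, an inhibitor of the cell cycle, had 3 counts in each. Of the 11, 5 had the 10 counts needed to be tested, as had 15949 of all 48321 symbols, from *Cd81* at 6.04 ± 0.255 CPM to *Nap1l4*, a histone chaperone at the edge of the domain, at 200 ± 7.83 CPM. Of these, 1 passed as higher in replicate 2 (*Tssc4*, log2 ratio 0.40) and 1 as lower (*Osbpl5*, -0.29), beside 13.5% and 2.82% of all genes tested. With TMM library sizes only *Osbpl5* passed, and with the biological coefficient of variation of 0.1, 0 of the 5. The parental allele of any of these counts cannot be read from the tables.

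**Figure D5:**
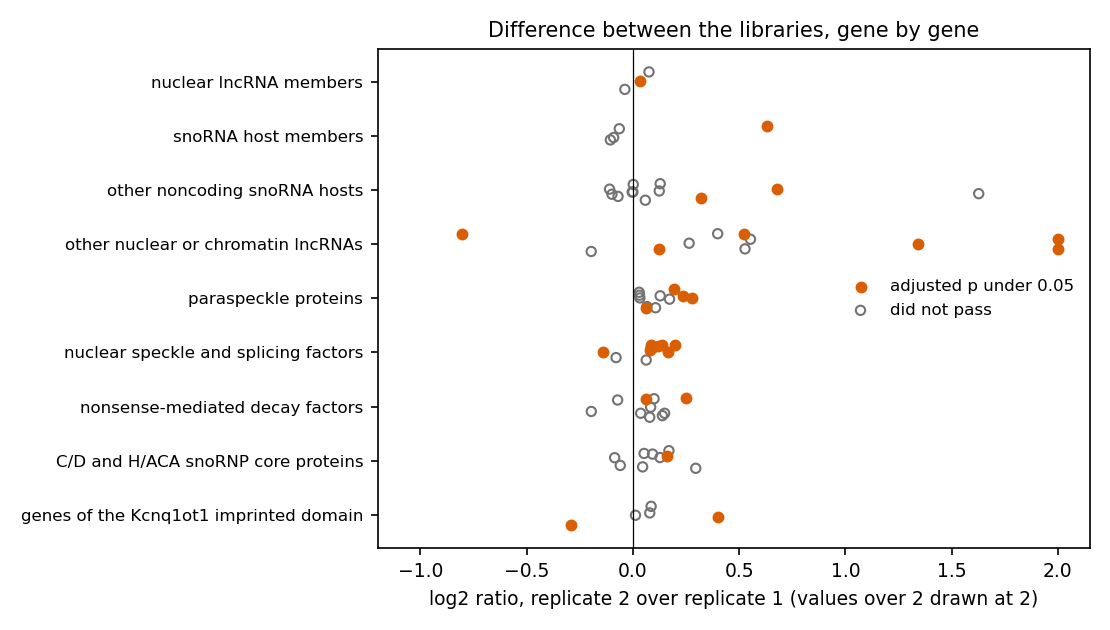
Log2 ratio of replicate 2 over replicate 1 for each gene tested in the lists, a row per list, filled where the adjusted p of the exact binomial test was under 0.05 and open where it was not, with values over 2 drawn at 2. *Gas5* at 0.63 is the farthest of the 7 genes described, and the paraspeckle, speckle, decay and snoRNP lists lie within -0.20 and 0.30.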

How the data were processed

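The authors prepared poly(A)-selected libraries with a NEBNext RNA kit, obtained single-end reads of 50 bases, aligned them with TopHat2 2.1.1 to mm10 and counted them over genes with HTSeq 0.6.1. The deposited values are these counts, whole numbers with no normalization. The gene annotation and strand setting are not given in the sources used here. The labels name 1 group of 2 replicates.

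Counts were divided by the total on genes (without the lines for unassigned reads) to give CPM, with Wilson 95% intervals, which cover counting error only, since the reads carry no molecular identifiers. Genes with at least 10 counts over both libraries were compared by an exact binomial test, two-sided (scipy 1.17.1), with Benjamini-Hochberg adjustment over all genes tested, at a threshold of 0.05. On simulated Poisson counts (15991 genes tested) all 200 of the 200 genes set to change 4-fold passed, as did 7 that were not changed. The 200 were drawn from genes with at least 100 counts. The simulation holds counting error only, so it does not give the number of false calls in these libraries. GENCODE M21 (GRCm38) gave positions and exons for 46394 of the 48321 symbols, and RefSeq (GRCm38.p6) gave promoters. *Snu13* is listed as *Nhp2l1*, and *Snhg10*, *Snhg16* and *7SK* were not matched.

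The members and lists were chosen with earlier results of these data known. Named genes are the 7 genes, the highest, the lowest and the most different passing gene of each list, the snoRNA with the most counts, opposite-strand genes that overlap exons, and the nearest protein-coding gene. Others were named after their values were seen: further genes that passed in a short list, or genes listed at or near 0. Alternatives were TMM (edgeR 4.0.16), DESeq2 1.42.0 size factors, totals without 393 mitochondrial and ribosomal RNA genes, minimum counts of 1 and 100, the exact test of edgeR at a fixed biological coefficient of variation (0.1), other lengths, and each replicate left out.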

Additional observations from a re-analysis of the deposited data

How the results depend on the processing

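Without mitochondrial and ribosomal RNA genes in the total (16.0% and 12.6% of the counts), levels rose by construction to 2696 CPM for *Malat1*, 223 for *Neat1*, 93.2 for *Kcnq1ot1*, 73.8 for *Snhg1*, 29.99 for *Snhg8* and 33.7 for *Snhg12*, and the shares to 0.301% for nuclear RNAs and 0.0318% for hosts, while 1 of the 7 genes passed and the *Malat1* log2 ratio was -0.023. With the counts of *Gm37376* added, chosen after seeing the data, *Malat1* was at 2475 CPM. By the shortest transcript, levels were 4762 CPM per kb for *Malat1*, 269 for *Neat1*, 449.7 for *Gas5*, 202 for *Snhg1*, 57.3 for *Snhg8* and 68.3 for *Snhg12*. By the longest, they were 60.9 for *Gas5*, 23.1 for *Snhg1*, 33.1 for *Snhg8* and 18.7 for *Snhg12*, and by the short form of *Neat1*, also chosen after seeing the data, 63.6. With TMM sizes 1683 genes passed (824 higher and 859 lower in replicate 2), the *Malat1* log2 ratio was -0.043 and that of *Snhg1* -0.18. With DESeq2 sizes 1 of the 7 passed, *Malat1* had a log2 ratio of -0.028, and the split was 992 and 739. A minimum of 100 counts left 55 genes at 2-fold. With a biological coefficient of variation of 0.1 in edgeR, 74 genes passed, 60 at 2-fold, and 0 of the 7, of which 1 had an unadjusted p under 0.05 (*Malat1* log2 ratio 0.034, *Gas5* 0.63). Apart from the scalings and lengths, the cause of these moves was not tested. The coefficient that edgeR estimated from these 2 libraries was 0.105. Leaving out a replicate gives the other library's value, so means over 2 could not move beyond their SD, and counts of genes that differ could not be made. No paired analysis was possible because the labels give a single group. At this depth a count of 0 still allows a level of up to 0.179 CPM in replicate 1 and 0.185 CPM in replicate 2. It does not show that a gene is absent.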
